A study of Homo sapiens with 12 samples.

Results

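Glycolysis and the hypoxia response were followed here in HGC-27 cells, a human gastric carcinoma line, through 39 genes listed by name. A glycolysis group of 24 genes held the enzymes, transporters and flux-controlling kinases of the pathway. A HIF group of 15 genes held targets of the hypoxia-inducible factors outside glycolysis together with the alpha subunits HIF1A and EPAS1. All 39 were found by Ensembl identifier among the 20345 rows of the expression table, and 36 of them were among the 11225 rows that reached a mean of 1 FPKM over the 12 libraries. FPKM is the number of sequenced fragments of a gene scaled by its transcript length and by the mapped total of the library, so levels of different genes can be set side by side per length.

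Every library was from HGC-27. WT cells and cells labelled TEAD4KO were each either left untreated or given GLUP, a synthetic peptide the study derived from VGLL4, a cofactor of the Hippo pathway transcription factor TEAD4, to gather TEAD4 into condensates. The 4 groups of 3 libraries were WT untreated (replicates 1, 2 and 3), WT with GLUP (replicates 14, 15 and 16), TEAD4KO untreated (1, 2 and 3) and TEAD4KO with GLUP (14, 15 and 16). The labels do not give the time or dose of GLUP, how TEAD4 was disrupted, or whether the TEAD4KO cells were 1 clone, so clone and genotype cannot be told apart.

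Glycolysis splits glucose into pyruvate in the cytosol, and lactate dehydrogenase turns pyruvate into lactate when it is not burned in mitochondria. When oxygen is plentiful, prolyl hydroxylases (EGLN1, EGLN3) mark the HIF alpha subunits for destruction through VHL. When oxygen falls, stabilised HIF binds DNA with ARNT and raises most glycolytic genes together with genes for pH control, blood vessel growth and mitophagy. EGLN3, CA9 and ADM are among the targets that respond most readily. Control of HIF1A is largely at the protein, which RNA sequencing does not read.

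TEAD4 RNA did not separate the genotypes in the direction of the label. It was 25.1 ± 0.709 FPKM (SD, n = 3) in untreated WT and 28.3 ± 1.55 in untreated TEAD4KO, and it was called higher in TEAD4KO among GLUP-treated cells (log2 fold change 0.23 ± 0.06 SE, adjusted p = 0.0479, limma). Results for genotype are therefore given for libraries labelled TEAD4KO. On the first principal component of all tested genes (39.7% of the variance), 2 of these libraries, TEAD4KO untreated 1 and TEAD4KO GLUP 16, lay at -0.962 and -5.26, near the WT libraries (-16.2 to -3.71), while the other 4 lay at 9.91 to 19.8. TEAD4KO against WT fold changes were also ordered by transcript length (Spearman's rho across 11077 genes -0.520 without and -0.478 with GLUP) and by GC content (0.30 and 0.20). The gastric markers TFF1, TFF2 and GKN1 were listed at 0 in all 12 libraries, with MUC5AC and MUC6 at most 0.0275 and 0.284 FPKM. Of the epithelial markers EPCAM, KRT18 and KRT19 reached at most 0.169, 0.290 and 0.0459 FPKM, while CDH1 lay at 2.04 to 3.68 and KRT8 at 3.78 to 9.13. Of the mesenchymal markers VIM lay at 1238 to 1704 FPKM, FN1 at 3.85 to 9.15 and CDH2 at 0.0331 to 0.149. The fibroblast markers COL1A1 and LUM lay at 155 to 304 and 48.6 to 64.5, CD3E was listed at 0, and PTPRC and VWF reached at most 0.276 and 0.0439. The part of these differences in the results below was not tested beyond the values given beside them.

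Most enzymes from aldolase to lactate dehydrogenase were highly expressed. GAPDH, which oxidises glyceraldehyde 3-phosphate, averaged 2186 FPKM over the 12 libraries and ENO1, the main enolase, averaged 1583. LDHB (789), LDHA (654), PKM (627) and ALDOA (594) followed, then PGAM1 (414), TPI1 (310), the earlier enzyme GPI (244) and PGK1 (103). The committing steps at the top were far lower, with PFKP at 82.6 FPKM, PFKM at 55.5, HK2 at 25.8, PFKL at 24.3 and HK1 at 10.7. The 17 enzymes from hexokinase to lactate dehydrogenase made up 1.78% to 2.08% of each library's FPKM total. Their share was 1.95% ± 0.0616 in untreated WT, 1.93% ± 0.0312 in WT with GLUP, 2.00% ± 0.0966 in untreated TEAD4KO and 1.92% ± 0.124 in TEAD4KO with GLUP, and the ranges of the 4 groups overlapped.

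Within enzyme families the shares of summed FPKM were as follows, as a description with no test. ENO1 held 99.5% to 99.8% of the FPKM summed over ENO1 and ENO2, and ALDOA held 97.6% to 98.1% of that summed over ALDOA and ALDOC. The minor ENO2 and ALDOC shares were higher with GLUP in WT without overlap (0.273% ± 0.0338 to 0.422% ± 0.0555, and 1.89% ± 0.0224 to 2.31% ± 0.0817). In TEAD4KO they overlapped, with lower means under GLUP (0.336% ± 0.160 to 0.301% ± 0.111, and 2.11% ± 0.194 to 2.02% ± 0.00577). PFKFB3 held 83.1% to 95.0% of PFKFB3 and PFKFB4 together. Its share was lower with GLUP in WT without overlap (94.2% ± 0.689 to 87.1% ± 4.49), though its own mean level was not (15.4 to 16.2 FPKM). In TEAD4KO its share overlapped, with a higher mean under GLUP (90.2% ± 4.41 to 93.1% ± 2.07). HK2, the inducible hexokinase, held 68.6% to 71.9% of HK1 and HK2 together, and LDHA, which favours lactate, held 40.6% to 48.5% of LDHA and LDHB together. HIF1A was far above EPAS1, with 97.5% to 98.8% of their sum.

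Transporters and flux-controlling kinases spanned a wide range. The glucose transporters SLC2A3 and SLC2A1 averaged 28.7 and 20.04 FPKM, and the lactate exporter SLC16A3 only 1.41. PFKFB3, which makes the fructose 2,6-bisphosphate that drives phosphofructokinase, averaged 15.5 against 1.56 for its relative PFKFB4, and the kinases that close pyruvate dehydrogenase, PDK3 and PDK1, averaged 1.60 and 1.05. Just under the limit of 1 FPKM were EPAS1 (0.904) and CA9 (0.617), with BNIP3 at 0.276, and these 3 were not tested. HIF1A (44.6), P4HA1 (39.8), ADM (28.3) and VEGFA (22.5) led the HIF group. SLC2A3 shares sequence with SLC2A14 and PGAM1 with PGAM4, and several of these enzymes have processed pseudogenes, so reads that the authors' quantification split between copies leave these levels uncertain.

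**Figure D1:**
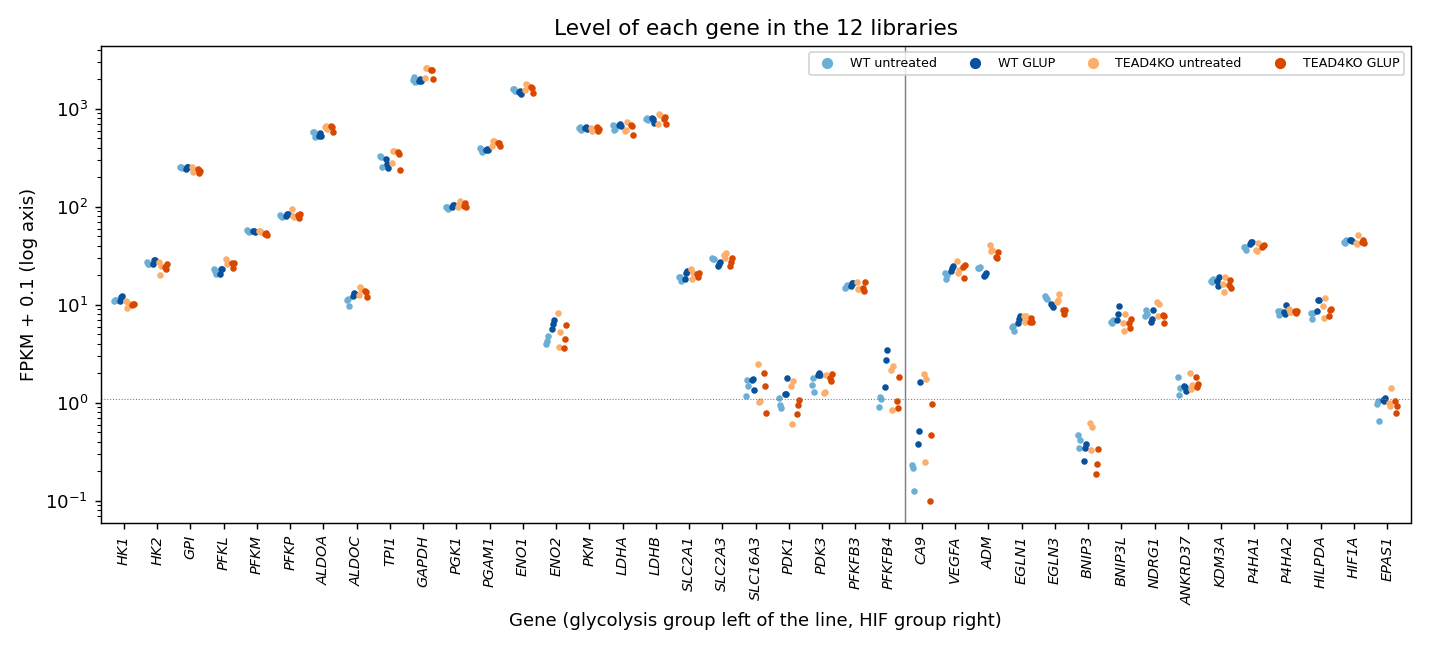
FPKM plus 0.1 of the 39 genes on a log axis, 1 point per library and 1 colour per group of 3; the vertical line parts the glycolysis group (left) from the HIF group (right) and the dotted line marks 1 FPKM. GAPDH and ENO1 stand highest, the points of 1 gene mostly fall together, and CA9, PFKFB4, BNIP3, SLC16A3 and PDK1 spread most.

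HIF binds the core A/GCGTG, so promoters were searched for ACGTG and GCGTG on both strands, with overlapping matches counted. The search covered the 250 bases before 1 RefSeq start site per gene, the first listed (GRCh38.p14 table, start sites as RefSeq gives them). Any other start site of a gene was not searched. Promoters were found for 34 of the 39 genes, the missing ones being SLC2A3, VEGFA, BNIP3L, NDRG1 and HILPDA. At least 1 core was present in 13 of 23 glycolysis promoters (56.5%) and 9 of 11 HIF promoters (81.8%), against 59.0% of the 9034 promoters of tested genes and 43.1% of all 27305. For 2 or more cores the order differed, with 30.4% of glycolysis and 18.2% of HIF promoters (2 of 11) against 30.1% of those of tested genes. Of 18 promoters of the other HIF targets counted further below, 88.9% held at least 1 core and 77.8% held 2 or more. BNIP3 held 6 matches, LDHA and ALDOC held 5 matches each, PGK1 held 3, and EGLN3, HK1 and PGAM1 held 0 in this window. Stretches of 80 bases from the promoters of genes the results turn on follow, 5′ to 3′ on the gene's strand with each core in capitals, placed on GRCh37 by an exact match. They are upstream of the start site of ADM (chr11:10326481-10326560, plus strand), EGLN3 (chr14:34420281-34420360, minus), EGLN1 (chr1:231558034-231558113, minus), PFKFB4 (chr3:48594361-48594440, minus), PFKL (chr21:45719734-45719813, plus), PGK1 (chrX:77359510-77359589, plus) and LDHA (chr11:18415992-18416071, plus).
ADM: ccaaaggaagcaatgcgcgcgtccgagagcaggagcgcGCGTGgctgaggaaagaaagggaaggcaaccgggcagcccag
EGLN3: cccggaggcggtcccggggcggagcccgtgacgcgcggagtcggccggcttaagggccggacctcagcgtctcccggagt
EGLN1: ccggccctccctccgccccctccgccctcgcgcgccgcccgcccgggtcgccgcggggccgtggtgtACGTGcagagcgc
PFKFB4: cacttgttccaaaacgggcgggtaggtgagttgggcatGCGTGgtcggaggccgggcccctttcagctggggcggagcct
PFKL: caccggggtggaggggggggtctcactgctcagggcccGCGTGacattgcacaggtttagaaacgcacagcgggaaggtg
PGK1: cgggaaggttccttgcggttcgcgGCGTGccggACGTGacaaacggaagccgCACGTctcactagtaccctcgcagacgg
LDHA: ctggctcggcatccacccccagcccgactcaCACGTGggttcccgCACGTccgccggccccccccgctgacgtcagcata
The 80 bases of EGLN3 nearest its start carry no core, whereas PGK1 carries 3 and LDHA carries CACGTG, which reads as a core on either strand. A match is a string of letters and does not show that HIF was bound in these cells.

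GLUP in WT cells left both groups without a call. In bulk RNA a change in the share of cells that express a gene and a change per cell cannot be told apart. The GLUP-treated WT libraries were compared with the untreated ones in a limma model of log2(FPKM + 1), and 0 of 24 glycolysis genes and 0 of 12 HIF genes passed an adjusted p of 0.05, where 0.00891% of all tested genes did. At an unadjusted p under 0.05 there were 4 and 5 of them, against 3.43% of all genes. The median log2 fold change was 0.05 in each group and 0.01 over all genes. The groups of libraries did not overlap for 5 glycolysis genes that were higher with GLUP and 1 that was lower, and for 5 HIF genes that were higher and 2 that were lower, where 10.2% and 7.16% of all genes were so.

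The larger values in WT belonged to PFKFB4, ENO2 and HILPDA. PFKFB4 was 0.805, 1.05 and 1.00 FPKM in the untreated WT libraries and 1.35, 2.62 and 3.36 with GLUP. These libraries did not overlap, and the log2 fold change was 0.77 ± 0.25 (adjusted p = 0.999). ENO2, the neuronal enolase, was 3.90, 4.21 and 4.73 untreated and 5.55, 6.32 and 6.92 with GLUP (0.46 ± 0.21, adjusted p = 0.999), and HILPDA, a lipid droplet protein induced in hypoxia, was 8.19, 7.13 and 8.18 against 8.66, 11.1 and 11.2 (0.35 ± 0.14, adjusted p = 0.999). In all 3 genes each GLUP library was above each untreated one, and GLUP 14 was the lowest of its group. CA9, the carbonic anhydrase at the cell surface, was 0.130, 0.119 and 0.0266 FPKM untreated and 0.284, 0.419 and 1.54 with GLUP, levels too low for the test. VEGFA was 21.2, 18.1 and 20.3 FPKM untreated and 22.1, 23.5 and 24.6 with GLUP in WT. BNIP3L was 6.524, 6.383 and 6.955 untreated and 6.964, 8.067 and 9.664 with GLUP. Both were thus also higher in WT without overlap, while in TEAD4KO the libraries overlapped for both.

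**Figure D2:**
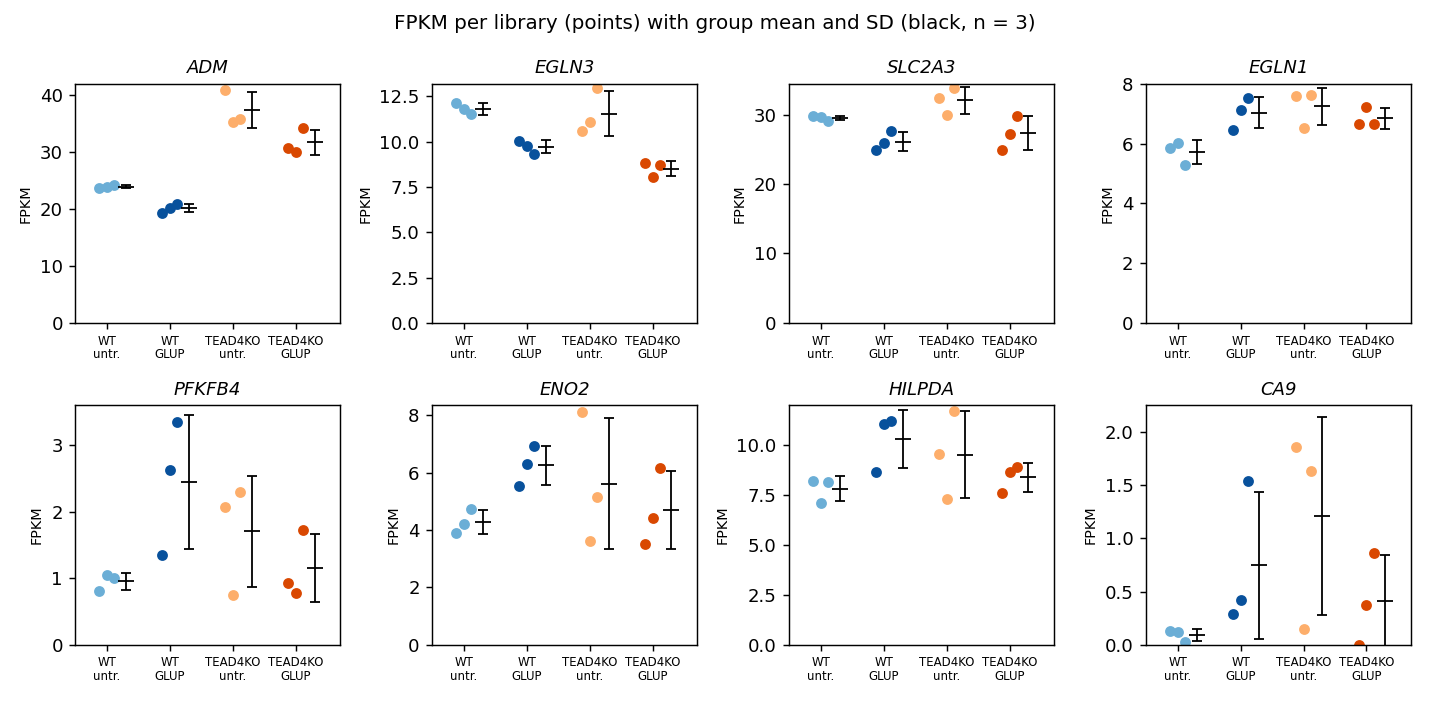
FPKM of 8 genes in the 12 libraries, with WT in blue, TEAD4KO in orange and the GLUP groups in the darker shade; black marks are group means with SD (n = 3), and each vertical axis starts at 0. ADM, EGLN3 and SLC2A3 lie lower with GLUP in both genotypes, while PFKFB4, ENO2, HILPDA and CA9 lie higher with GLUP in WT and scatter widely in untreated TEAD4KO.

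ADM, EGLN3 and SLC2A3 were lower with GLUP in both genotypes, without overlap of the libraries in either, as held for 0.659% of all tested genes. 0 of the 36 genes were higher in that way (0.998% of all genes). The contrast in TEAD4KO likewise gave 0 calls in either group (0.0445% of all genes called by limma), with 1 glycolysis and 3 HIF genes at an unadjusted p under 0.05 (6.38% of all genes). The libraries did not overlap for 2 glycolysis and 2 HIF genes, all lower with GLUP (3.98% of all genes lower and 2.85% higher). Medians there were -0.05 in both groups and -0.02 over all genes. The 2 GLUP contrasts use separate libraries but share 1 estimate of spread. Same-numbered GLUP libraries of the 2 genotypes also deviated together, so the contrasts are not fully separate observations.

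EGLN3, the prolyl hydroxylase with the strongest hypoxic induction (ENSG00000129521, chr14:34393433-34931980 on GRCh37, minus strand), was 12.1, 11.8 and 11.5 FPKM in untreated WT and 10.0, 9.78 and 9.32 with GLUP. In TEAD4KO it was 10.6, 11.1 and 13.0 untreated and 8.80, 8.03 and 8.71 with GLUP. All 6 GLUP-treated libraries were below all 6 untreated ones. The log2 fold change was -0.26 ± 0.08 in WT (adjusted p = 0.932) and -0.40 ± 0.08 in TEAD4KO (adjusted p = 0.153), and neither passed alone. In a fit added after seeing the data, with GLUP over both genotypes and genotype as a covariate, EGLN3 fell by 0.33 on the log2 scale (SE 0.06, adjusted p = 0.0248, limma), the single call among the 36 genes, where 0.303% of all genes were called (0.0891% lower) and 0.16% were lower (0.41% higher) in all GLUP libraries than in all untreated ones. The call was lost without any 1 of WT untreated 1, 2 or 3, WT GLUP 15 or 16, TEAD4KO untreated 2, or TEAD4KO GLUP 14 or 15, with adjusted p between 0.0209 and 0.0789 over all 12 omissions and a change of -0.28 to -0.34.

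ADM, the vasodilator peptide adrenomedullin (ENSG00000148926, chr11:10326620-10328944 on GRCh37, plus strand), was 23.7, 23.8 and 24.3 FPKM in untreated WT and 19.4, 20.2 and 20.9 with GLUP. In TEAD4KO it was 41.0, 35.4 and 35.9 untreated and 30.8, 30.1 and 34.3 with GLUP. Both genotypes showed the same order of treatments, and each TEAD4KO library was above each WT one. The GLUP differences were -0.24 ± 0.07 in WT (adjusted p = 0.869) and -0.23 ± 0.07 in TEAD4KO (adjusted p = 0.532). Over both genotypes the value was -0.23 ± 0.05 (adjusted p = 0.062), which passed without TEAD4KO untreated 1 and GLUP 16 (adjusted p = 0.0159).

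SLC2A3, the high-affinity glucose transporter GLUT3, was 29.7, 29.6 and 29.1 FPKM in untreated WT and 24.9, 25.8 and 27.6 with GLUP, and 32.4, 29.9 and 33.8 against 24.9, 27.2 and 29.7 in TEAD4KO. GLUP 16 was the highest of its group in both genotypes and still below the lowest untreated library of its own genotype. TEAD4KO GLUP 16 was not below the untreated WT libraries. Over both genotypes the log2 difference was -0.20 ± 0.05 (adjusted p = 0.169), and after correction of each library for GC content and transcript length it was -0.21 (adjusted p = 0.0433). SLC2A1, the other glucose transporter of the list, was not lower in WT (18.6 ± 1.03 untreated, 20.5 ± 2.10 with GLUP), and the share of SLC2A3 in their sum was 61.3% ± 1.07 untreated and 56.1% ± 1.48 with GLUP in WT, and 60.6% ± 1.79 and 57.4% ± 2.13 in TEAD4KO.

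The oxygen-sensing hydroxylases differed from each other. EGLN1 was 5.86, 6.01 and 5.27 FPKM in untreated WT and 6.47, 7.12 and 7.52 with GLUP (0.26 ± 0.09, adjusted p = 0.999), so it was higher where EGLN3 was lower. In TEAD4KO it was 7.58, 6.52 and 7.64 untreated and 6.65, 7.24 and 6.65 with GLUP, which overlapped. The share of EGLN1 in the FPKM summed over EGLN1 and EGLN3 was 32.6% ± 1.18 in untreated WT and 42.0% ± 2.73 with GLUP, and 38.6% ± 2.72 and 44.6% ± 2.46 in TEAD4KO. In each genotype the 3 GLUP libraries were above the 3 untreated ones, as a description with no test. P4HA1, which hydroxylates collagen, was 38.7, 38.6 and 36.6 against 41.9, 43.8 and 44.1 in WT (0.18 ± 0.07, adjusted p = 0.999), and HIF1A itself was 44.1 ± 1.70 and 45.3 ± 0.587.

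**Figure D3:**
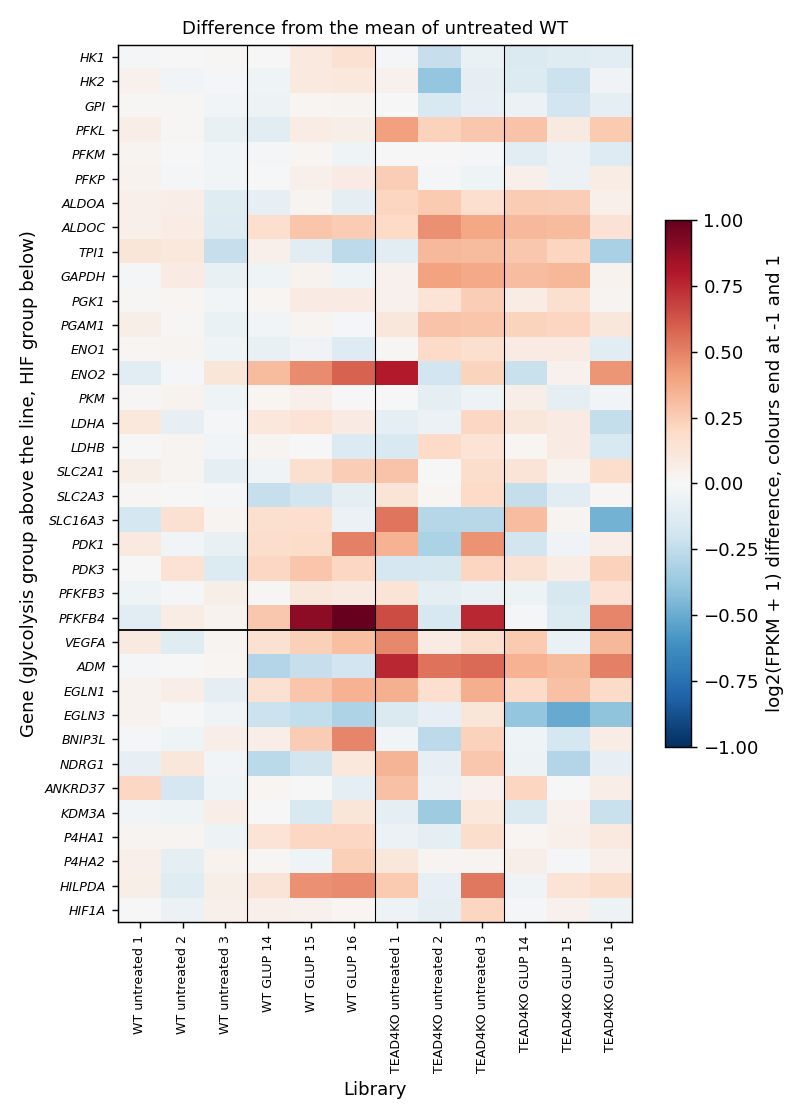
Difference of log2(FPKM + 1) from the mean of untreated WT for the 36 tested genes (rows, glycolysis group above the line) in the 12 libraries (columns), red for higher and blue for lower, with colours ending at -1 and 1. ADM is red in all 6 TEAD4KO libraries and pale blue in the 3 WT GLUP ones, EGLN3 is blue in all 6 GLUP libraries, and PFKFB4 is deepest in WT GLUP 15 and 16.

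Whether GLUP acted differently in the genotypes was tested by the interaction, and 0 of 24 and 0 of 12 genes passed (0.00891% of all genes called by limma), with 3 and 2 at an unadjusted p under 0.05 (2.53% of all genes). The interaction was negative for 22 of 24 glycolysis genes and 9 of 12 HIF genes. The share of all genes with a negative interaction was not counted, so these counts have no background beside them. These signs come from the same 12 libraries and are not separate observations. Medians of the interaction were -0.08 and -0.14 against -0.02 over all genes. PFKFB4 had the largest value at -1.08 ± 0.36, followed by ENO2 at -0.64 ± 0.30, HILPDA at -0.50 ± 0.19, EGLN1 at -0.33 ± 0.12 and ALDOC at -0.32 ± 0.12, each with an adjusted p of 1. In each of these 5 genes the value with GLUP was higher in WT and lower in TEAD4KO as group means. Untreated TEAD4KO and WT with GLUP were both uneven for PFKFB4 (SD 0.835 and 1.01 FPKM). PFKFB4 was 2.07, 0.750 and 2.29 FPKM in untreated TEAD4KO and 0.934, 0.779 and 1.73 with GLUP. CA9 was 1.86, 0.147 and 1.64, then listed at 0, 0.373 and 0.866 with GLUP. HILPDA was 9.58, 7.33 and 11.7, then 7.58, 8.68 and 8.93. In PFKFB4, CA9 and HILPDA TEAD4KO untreated 1 and 3 were high and 2 was low, and the SD of that group exceeded the difference between its mean and that of TEAD4KO with GLUP. For ADM the interaction was 0.01 ± 0.10.

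Genotype in untreated cells gave 3 calls. PFKL, the liver-type phosphofructokinase, rose in TEAD4KO by 0.30 ± 0.08 on the log2 scale (adjusted p = 0.0378), ALDOC, the brain-type aldolase, by 0.35 ± 0.09 (adjusted p = 0.036) and ADM by 0.62 ± 0.07 (adjusted p = 0.00101). That is 2 of 24 glycolysis genes and 1 of 12 HIF genes, where 5.42% of all tested genes were called (4.92% higher), and 0 of the 3 passed a fold of 2 (0.0356% of all genes). The libraries did not overlap for 6 glycolysis genes that were higher and 1 that was lower, and for 2 HIF genes that were higher (18.3% of all genes higher, 7.47% lower). PFKL was 23.0, 22.1 and 20.8 FPKM in WT and 29.5, 26.0 and 26.6 in TEAD4KO, and ALDOC was 11.1, 11.3 and 9.73 against 12.4, 15.1 and 14.3. Neither overlapped, and neither kept its call after the correction for GC content and length (adjusted p = 0.0644 and 0.0679). With the correction PGK1 (0.22, adjusted p = 0.0348), EGLN1 (0.36, adjusted p = 0.0265) and ADM (0.52, adjusted p = 0.00858) were called. In that setting 3.5% of all genes were called. The median change was 0.12 in the glycolysis group, 0.07 in the HIF group and 0.02 over all genes. After the correction the glycolysis median was 0.06, and after quantile normalization 0.02.

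**Figure D4:**
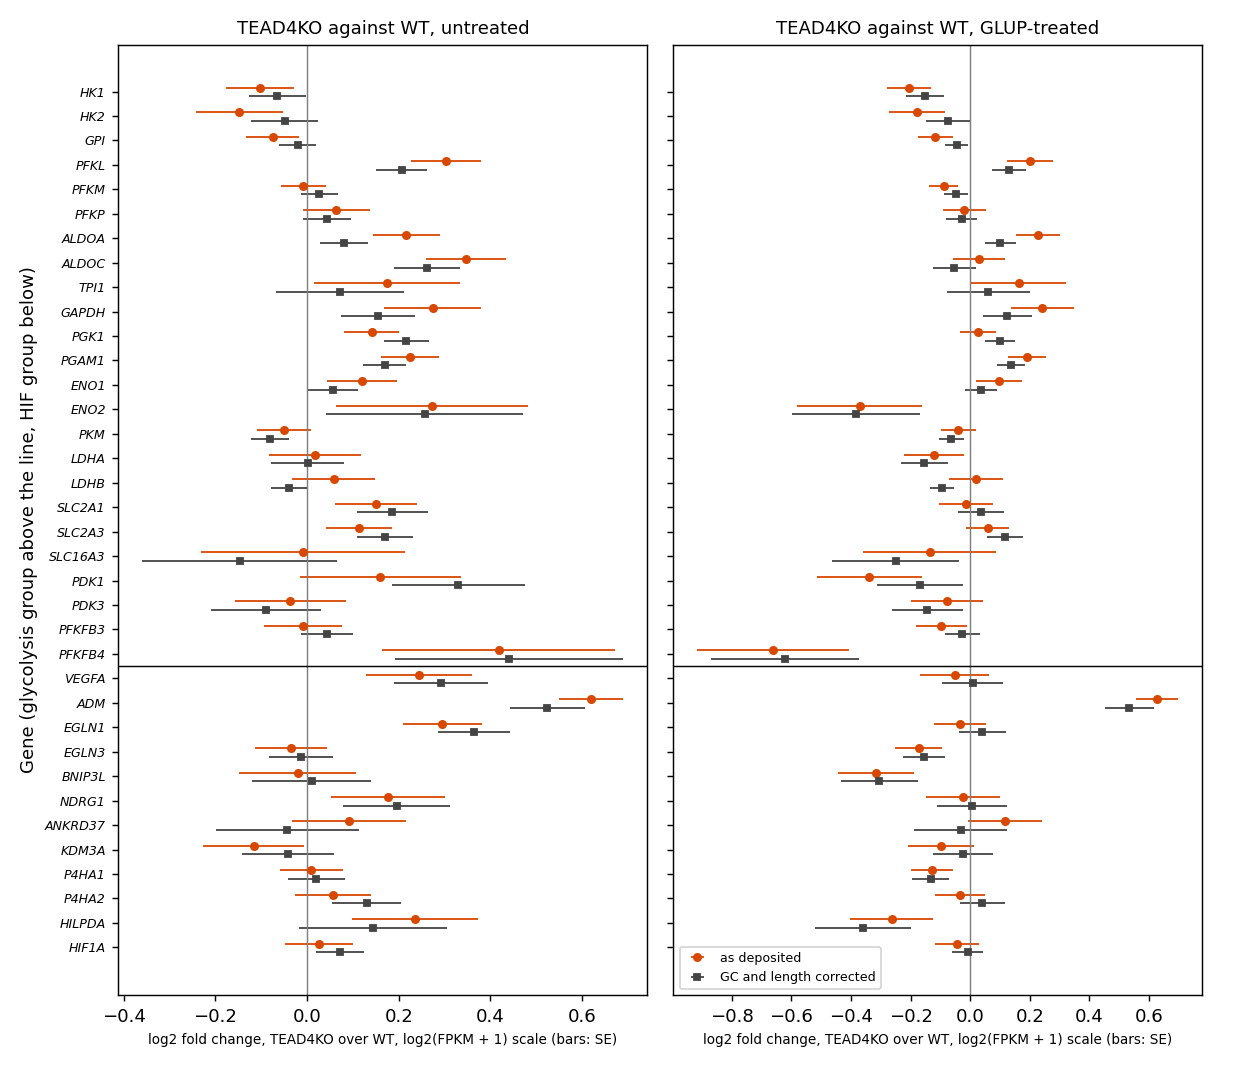
Log2 fold change of TEAD4KO over WT (log2(FPKM + 1) scale, bars SE) for the 36 tested genes, untreated on the left and GLUP-treated on the right; orange circles use values as deposited and grey squares values corrected for GC content and length. ADM stands apart near 0.6 in both panels, corrected values of ALDOA, GAPDH and TPI1 move towards 0, and PFKFB4 and ENO2 lie on opposite sides of 0 in the panels.

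The glycolysis count depended on single libraries, as did the share of all genes called. The count was 0 without any 1 of WT untreated 1, 2 or 3, WT GLUP 15 or 16, or TEAD4KO untreated 2 or 3. In those fits 1.06% to 5.18% of all genes were called. The count was 1 without WT GLUP 14 (3.83% of all genes) and 4 without TEAD4KO GLUP 16 (8.63%). Without both TEAD4KO libraries that lay near WT, 7 of 24 were called, all higher, namely PFKL, ALDOA, ALDOC, GAPDH, PGK1, PGAM1 and ENO1, but 19.9% of all genes were called in that setting. The ADM call was kept in all 12 omissions. GAPDH was 1985, 2118 and 1891 FPKM in WT and 2055, 2643 and 2590 in TEAD4KO, so TEAD4KO untreated 1 sat within the WT range.

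Under GLUP only ADM was called in TEAD4KO against WT. It was 0.63 ± 0.07 higher (adjusted p = 0.000625), 1 of 12 HIF genes, with 0 of 24 glycolysis genes called and 6 of them at an unadjusted p under 0.05. Over all genes 5.84% were called (4.91% higher, 0.935% lower, 0.0535% past a fold of 2, which ADM did not reach) and 23.9% had an unadjusted p under 0.05. The libraries did not overlap for 3 glycolysis genes that were higher and 4 that were lower, and for 1 and 2 HIF genes (16.7% and 12.9% of all genes). With the replicate number as a block, ALDOA was called higher (0.23, adjusted p = 0.0491) and PFKFB4 lower (-0.66, adjusted p = 0.0366), so 2 glycolysis genes were called in place of 0, with 10.7% of all genes called in that fit. The count was 4 without TEAD4KO GLUP 16 (17.4% of all genes called) and 1 without TEAD4KO untreated 1 (9.82%). Without both libraries near WT it was 7, of which ALDOA, TPI1, GAPDH, PGAM1 and ENO1 were higher and ENO2 and PFKFB4 lower, where 27.8% of all genes were called, close to the share of the group. The medians were -0.03 and -0.05 in the glycolysis and HIF groups and -0.00 over all genes.

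PGAM1, ALDOA, PFKL and ADM were higher and HK1 was lower in TEAD4KO without overlap at both treatments, where 9.82% and 3.71% of all genes were so. In a fit added after seeing the data, with genotype over both treatments and treatment as a covariate, PFKL (0.25 ± 0.05, adjusted p = 0.00451), PGAM1 (0.21 ± 0.04, adjusted p = 0.00354), ALDOA (0.22 ± 0.05, adjusted p = 0.0058) and GAPDH (0.26 ± 0.07, adjusted p = 0.0195) were higher and HK1 (-0.15 ± 0.05, adjusted p = 0.0466) lower, 5 of 24, with ADM (0.62 ± 0.05, adjusted p = 4.19e-06) in the HIF group, 1 of 12. Over all genes 21.9% were called in that fit (15.3% higher, 6.62% lower), so the share of the glycolysis group was close to the background. The correction for GC content and length kept PFKL, PGAM1 and ADM and added PGK1 and SLC2A3, while ALDOA, GAPDH and HK1 no longer passed. After quantile normalization GAPDH and ENO1 were at or below 0 (-0.00 each), and the glycolysis calls turned from 4 higher and 1 lower to 1 higher and 7 lower. Calls over all genes went from 1718 higher and 743 lower to 1323 higher and 1355 lower. PFKL was kept as higher, PGAM1, ALDOA and GAPDH were lost, and LDHA, LDHB, PFKM, PKM, GPI and HK2 joined HK1 as lower. The 17 enzymes have short transcripts (median 2294 bases against 3344 over all tested genes) of high GC content (54.0% against 48.2%), and the part of this in the counts was not tested beyond the corrected values.

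PFKL also stood higher in TEAD4KO relative to the other phosphofructokinases. Its share of the FPKM summed over PFKL, PFKM and PFKP was 13.8% ± 0.364 and 13.7% ± 0.615 in WT, untreated and with GLUP, and 16.3% ± 0.288 and 15.96% ± 0.749 in TEAD4KO. All 6 TEAD4KO libraries (15.1% to 16.6%) were above all 6 WT libraries (13.0% to 14.1%), as a description with no test.

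Genes next to the pathway were counted from further lists, to be read against the shares of all genes called in TEAD4KO, 5.42% untreated and 5.84% under GLUP. For 19 other HIF targets the median log2 fold change with GLUP was 0.13 in WT and -0.01 in TEAD4KO (0.01 and -0.02 over all genes). At an unadjusted p under 0.05 in limma were 6 and 3 of them (3.43% and 6.38% of all genes). In WT the libraries did not overlap for 6 that were higher and 0 that were lower (10.2% and 7.16% of all genes). In TEAD4KO this held for 1 and 2 (2.85% and 3.98%). Of these 19, 0 were called with GLUP in either genotype. In untreated TEAD4KO 3 were higher, namely DDIT4, an inhibitor of mTORC1 (0.49 ± 0.09, adjusted p = 0.00743), ANGPTL4, which restrains lipoprotein lipase (0.47 ± 0.09, adjusted p = 0.0115), and EFNA3, an ephrin (0.50 ± 0.12, adjusted p = 0.0274). Under GLUP 1 was lower, AK4, a mitochondrial adenylate kinase (-0.55 ± 0.14, adjusted p = 0.0369). DDIT4 was 23.6, 22.3 and 21.8 FPKM in untreated WT and 27.0, 34.6 and 33.9 in WT with GLUP, above every untreated WT library, and 30.2 to 35.0 in TEAD4KO. Of 11 tested genes of the HIF machinery, EGLN2 was called higher in untreated TEAD4KO (0.35 ± 0.08, adjusted p = 0.0253) and ELOB, a partner of VHL, under GLUP (0.54 ± 0.14, adjusted p = 0.0392). Of 8 further genes of glycolysis and gluconeogenesis, PCK2, the mitochondrial PEP carboxykinase, was higher at both treatments (0.35 ± 0.07 and 0.37 ± 0.07, adjusted p = 0.013 and 0.00882), as was PGLS among 7 pentose phosphate genes (0.57 ± 0.08 and 0.50 ± 0.08, adjusted p = 0.00316 and 0.00398). PCK2 and PGLS kept their calls after the correction (adjusted p = 0.0222 and 0.0125 for PCK2, 0.015 and 0.0278 for PGLS), as did DDIT4 (adjusted p = 0.0423), whereas ANGPTL4, EFNA3, AK4, EGLN2 and ELOB did not. Of 26 genes of pyruvate entry and the TCA cycle, 0 were called in these 4 comparisons. Those at an unadjusted p under 0.05 in limma were 1, 1, 5 and 3, against 3.43%, 6.38%, 21.7% and 23.9% of all genes. GLUP-treated and untreated WT libraries did not overlap for 8 of the 26, all lower with GLUP (7.16% of all genes lower and 10.2% higher). The median change there was -0.05, against 0.01 over all genes. In TEAD4KO the libraries overlapped for all 26 (3.98% of all genes were lower and 2.85% higher without overlap).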

How the data were processed

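RNA sequencing of 12 HGC-27 libraries was used. The authors deposited 1 table of FPKM values, 1 column per library, without pooling. HISAT2, Cufflinks, RSEM and hg19 are named in the submitters' processing notes, with no versions or roles. Depth is unknown, since steps of whole reads could not be found (the most common ratio held at most 0.755% of low genes), so precision rests on the spread between libraries. Of 20345 rows, 96.5% had a symbol, length and GC content in GENCODE release 44 on GRCh37. Tests used limma 3.58.1 in R 4.3.3 on log2(FPKM + 1), with lmFit and eBayes with trend, 1 model of 4 groups, two-sided, keeping rows that averaged 1 FPKM or more. Fold changes are on that scale, which understates low genes. P-values were adjusted by Benjamini-Hochberg over all 11225 rows, and called means an adjusted p under 0.05. All 36 tested members could be named, and further genes only where called (up to 3 per list and comparison). The members and lists were chosen with earlier results of these data known. The code was tested on simulated data. The labels do not say that replicates were separate cultures, so p-values measure the spread between these libraries.

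Same-numbered GLUP libraries of the 2 genotypes deviated together (correlations 0.106, 0.152 and 0.336, the rule being over 0.1 in each pair), though some pairs of different numbers also passed 0.1. Untreated ones did not (-0.057, 0.203 and -0.015). The block is therefore given beside the GLUP-treated genotype result. Settings varied were the pseudocount (0.1), the filter (none, 17969 rows, or a mean of 5 FPKM, 8182 rows), median-ratio scaling, quantile normalization, array weights, a fold limit of 2, only the groups compared, splines of GC content and length (5 degrees of freedom each), the replicate block, and leaving out each library. Added after seeing the data were the fits over both genotypes and over both treatments, and leaving out the 2 TEAD4KO libraries near WT.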

Additional observations from a re-analysis of the deposited data

How the results depend on the processing

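Counts of called genes moved most in the genotype comparisons. Percentages in brackets are shares of all genes called in the same setting. In untreated cells the glycolysis count of 2 was 0 with no filter (2.19%), under quantile normalization (5.37%) and with only the groups compared (3.4%). It was also 0 with a fold over 2 (0.0356%) and with the replicate block plus the GC and length correction (1.27%). It was 1 under median-ratio scaling (4.04%), with the correction alone (3.5%) and with the replicate block alone (5.82%). Without both TEAD4KO libraries near WT it was 7 (19.9%). The HIF count of 1 was 2 with the correction (3.5%) and 0 with a fold over 2. Under GLUP the glycolysis count of 0 was 2 under quantile normalization (7.21%) and 6 with array weights (22.2%). It was 2 with the replicate block (10.7%) and 7 without both libraries (27.8%). The HIF count of 1 under GLUP was 2 with the block plus the correction (5.06%) and 0 with a fold over 2 (0.0535%). Over both treatments the glycolysis count of 5 was 3 with no filter (11%) and 8 under quantile normalization (23.9%), 1 higher and 7 lower. Without both libraries it was 13 (41.6%). With a fold over 2 (0.0445%) the glycolysis count and the HIF count were 0. For GLUP in WT, array weights gave 2 HIF calls in place of 0 (ADM and EGLN3, both lower), where 0.543% of all genes were called. For GLUP over both genotypes, the correction gave 1 glycolysis call in place of 0 (0.517%). The HIF count of 1 in that comparison was 2 under median-ratio scaling (0.383%) and without both libraries (0.365%), and 0 with a fold over 2.

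Leaving out each library gave 0 to 4 glycolysis calls at either treatment, 3 to 7 glycolysis and 1 to 2 HIF calls over both treatments (3 without WT untreated 3, 2 without TEAD4KO untreated 3), and 0 to 2 HIF calls for GLUP over both genotypes (2 without TEAD4KO GLUP 16). The others stayed constant, at 1 for the HIF group at either treatment and 0 for the rest. Across these omissions the genotype fits called 1.06% to 10.6% of all genes untreated and 1.75% to 17.4% under GLUP. Shares were 14.8% to 30% over both treatments and 0.134% to 0.365% for GLUP over both genotypes. Quantile normalization reversed GAPDH under GLUP (-0.0323) and, over both treatments, GAPDH (-0.0024) and ENO1 (-0.00353). It also moved the split of all genotype calls from 552 higher and 56 lower to 357 and 246 in untreated cells and from 551 and 105 to 510 and 299 under GLUP, and median-ratio scaling to 320 and 133, and 438 and 162. For these settings the cause was not tested.

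No paired analysis was possible for GLUP against untreated because these groups share no replicate numbers. In untreated cells, where the numbers did not pair the samples, the replicate block gave 1 glycolysis call, PFKL (adjusted p = 0.0454, limma). In that fit 5.82% of all genes were called. Depth is unknown and limits most what can be said of CA9, BNIP3 and EPAS1.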
